A study of Mus musculus with 2 samples.

Results

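The 10 genes that define the mast cell lineage were examined on arrays of regulatory innate lymphoid cells (ILCregs), namely Kit, Fcer1a, Ms4a2, Cpa3, Mcpt1, Mcpt2, Mcpt4, Cma1, Tpsb2 and Hdc. A gene entered when an array feature carried exactly 1 distinct gene symbol in the platform annotation and that symbol was one of the 10. This gave 9 genes, each with 1 feature, out of 28280 named genes on 61344 features. Ms4a2, which encodes the beta chain of the high-affinity IgE receptor, had no such feature and was not analysed here. The annotation wrote the symbols of Kit and Hdc with the same name repeated, which was counted as 1 symbol.

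The mice were IL-10-GFP knockin animals of the C57BL/6 strain, 8 weeks old, in which green fluorescent protein reports interleukin 10, and the cells were sorted from their small intestine. The series holds 1 group of 2 arrays, replicate 1 and replicate 2. Per the series' design text, flow cytometry after the sort gave a purity of over 95%. Nothing says whether the arrays came from separate mice or sorts, or whether mice were pooled, so their spread can be purely technical. The gates of the sort are not stated in the sources used here, and no other cell population was analysed.

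Mast cells are tissue-resident granulocytes that need the receptor tyrosine kinase KIT and its ligand, stem cell factor, to survive, and that degranulate when antigen cross-links IgE held on their high-affinity receptor. Their granules store histamine, heparin-type proteoglycan and proteases, which are chymases, tryptases and carboxypeptidase A3. In the mouse intestine, mucosal mast cells near the epithelium are marked by the chymases MCPT1 and MCPT2, whereas connective tissue mast cells of the deeper layers carry MCPT4, CMA1 and the tryptase TPSB2. KIT itself is not particular to mast cells. It is also found on group 3 innate lymphoid cells (ILC3s), on early haematopoietic and lymphoid progenitors, and on the interstitial cells of Cajal, the pacemaker cells of gut muscle.

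Of the 9 genes, only Kit gave a signal above a background threshold on both arrays, and the other 8 did so on neither. The threshold on each array was the 95th percentile of 1678 chemosensory receptor genes (olfactory, vomeronasal and taste), hereafter the reference, whose signal can be read without transcript in these cells. It was 6.74 for replicate 1 and 6.19 for replicate 2, in units of log2 signal. By the same call, 31.7% of all named genes, 38.9% of protein-coding genes outside the reference and 2.44% of the reference genes themselves passed on both arrays. The 9 genes had a median signal of 4.94 (the mean of both arrays for each gene), beside 4.47 for the reference, 5.43 for all named genes and 6.06 for protein-coding genes outside the reference. A signal below the threshold was not distinguishable from that of the reference, and a low transcript could be among such genes. The single group allowed no test of a difference between conditions. Probes also differ in affinity, so signals do not order these genes by abundance.

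**Figure D1:**
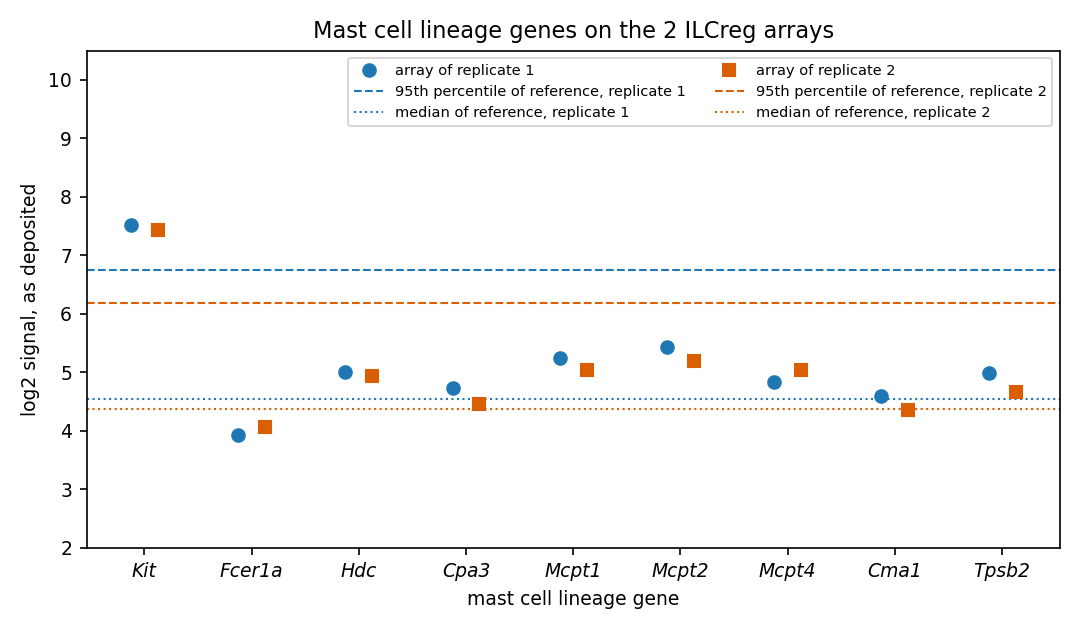
Log2 signal of the 9 mast cell lineage genes on the array of replicate 1 (circles) and of replicate 2 (squares), with the 95th percentile (dashed) and the median (dotted) of the reference genes on each array. Kit lies above both dashed lines, and the other 8 genes lie between 3.92 and 5.44, below them.

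Promoter sequences are given first for 4 members, to set the gene that passed the threshold, Kit, beside granule protease genes that did not. The windows run from 250 bases before to 50 bases after the RefSeq start in GRCm38.p6, and 8 of the 10 genes had one. Capitals mark the motifs AGATAA and TGATAA on either strand, which are forms of the GATA factor motif; in mast cells GATA factors, GATA2 above all, are central regulators. These letters are matches in sequence and not measured binding sites.
Kit, chr5:75574737-75575036 (+ strand): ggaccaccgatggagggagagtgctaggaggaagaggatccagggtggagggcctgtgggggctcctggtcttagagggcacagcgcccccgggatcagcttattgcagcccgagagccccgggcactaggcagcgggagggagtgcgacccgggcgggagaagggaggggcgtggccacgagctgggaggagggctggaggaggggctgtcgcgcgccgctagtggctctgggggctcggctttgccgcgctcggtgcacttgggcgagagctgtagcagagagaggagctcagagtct
Cpa3, chr3:20242132-20242431 (- strand): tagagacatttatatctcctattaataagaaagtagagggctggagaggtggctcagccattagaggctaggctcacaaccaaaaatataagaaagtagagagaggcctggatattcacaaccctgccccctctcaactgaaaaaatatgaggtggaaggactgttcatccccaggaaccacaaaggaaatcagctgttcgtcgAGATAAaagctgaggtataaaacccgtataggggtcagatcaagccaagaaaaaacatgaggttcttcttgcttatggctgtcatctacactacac
Mcpt1, chr14:56017714-56018013 (+ strand): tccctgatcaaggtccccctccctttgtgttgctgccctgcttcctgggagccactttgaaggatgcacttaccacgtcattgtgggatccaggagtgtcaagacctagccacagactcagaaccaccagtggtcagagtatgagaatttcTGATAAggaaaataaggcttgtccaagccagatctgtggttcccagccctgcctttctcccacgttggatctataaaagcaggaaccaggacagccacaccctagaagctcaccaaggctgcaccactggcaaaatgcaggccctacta
Mcpt4, chr14:56062261-56062560 (- strand): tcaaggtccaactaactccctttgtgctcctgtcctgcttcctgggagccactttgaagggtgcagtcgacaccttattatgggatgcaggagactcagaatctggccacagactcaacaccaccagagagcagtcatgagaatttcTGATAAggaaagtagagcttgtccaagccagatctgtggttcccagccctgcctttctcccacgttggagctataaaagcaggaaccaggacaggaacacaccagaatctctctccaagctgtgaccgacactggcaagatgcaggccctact
The Kit window shown held 20 CpG dinucleotides and had a GC content of 69.0%. A second Kit window, from a nearby start, held 21 and had the same GC content. The windows of the other 7 genes held 1 to 3 CpG dinucleotides, with a GC content of 41.0% to 52.3%. These 7 include Ms4a2, which had no array value here. The median of all 32851 windows was 7 CpG dinucleotides, and 73.5% of them held fewer than the Kit window shown. Either AGATAA or TGATAA occurred in the windows of 5 of the 8 genes, which were Fcer1a, Ms4a2, Cpa3, Mcpt1 and Mcpt4, and in 18.6% of all windows. The motif shares over all windows were not matched to the GC content of the member windows. The windows of Mcpt1 and Mcpt4 were alike over their length, with 249 identical bases of 291 aligned (85.6%), and each carried 1 TGATAA. Their motif matches are therefore not independent cases. By the same alignment, the other pairs among Mcpt1, Mcpt4, Cma1 and Cpa3 had 55.2% to 67.7% identical bases. The TATA box motif TATAAA, read on the gene's own strand, was found in Fcer1a, Cpa3, Mcpt1 and Mcpt4 and in 8.32% of all windows. The arrays measured no binding or methylation at these sequences.

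Kit, the receptor for stem cell factor, had a signal of 7.53 in replicate 1 and 7.44 in replicate 2, a mean of 7.48 ± 0.06 (SD, n = 2). Both values were above the threshold, by 0.78 and 1.25 on the log2 scale, and the arrays differed from each other by less than either margin. The position was near the upper edge of the reference and not beyond it. In replicate 1, 26 of the 1678 reference genes had a signal at or above that of Kit, in replicate 2 there were 9, and 4 did so in both. With the 99th percentile of the reference as threshold, 7.91 and 7.21, Kit lay below it on the array of replicate 1, and no member then passed on both. Kitl, which encodes stem cell factor and is made by stromal, epithelial and other cells, gave 8.96 and 9.44 and was above the threshold on both arrays.

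Of the chains of the IgE receptor, the alpha chain gene was below the threshold and the shared gamma chain gene was above it. Ms4a2, the beta chain gene, was not measured. Fcer1a, which encodes the IgE-binding alpha chain, gave 3.92 and 4.07 on the arrays of replicates 1 and 2, with an SD of 0.11 (n = 2). These values were below the reference medians of 4.54 and 4.38, with 17.2% and 30.8% of reference genes lower. Fcer1g, which encodes the gamma chain that also serves Fc and other activating receptors of macrophages, natural killer cells and further leukocytes, gave 10.84 and 10.20 and was above the threshold on both arrays.

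Hdc, which encodes histidine decarboxylase, the enzyme that makes histamine, gave 5.01 and 4.94, a mean of 4.98 ± 0.05 (SD, n = 2). It lay 1.73 and 1.25 below the thresholds of replicates 1 and 2. The gene is also used by basophils and by histamine-producing endocrine cells of the stomach. On a list of 6 endocrine genes, the 5 measured, Chga, Chgb, Tph1, Slc18a1 and Gast, were below the threshold on both arrays. Slc18a2, also on that list, was not measured. The presence of histamine-producing endocrine cells was not tested.

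Both chymases of mucosal mast cells were at reference level. Mcpt1 gave 5.24 and 5.05 on the arrays of replicates 1 and 2, with a mean of 5.14 ± 0.13 (SD, n = 2), and 75.3% and 78.5% of reference genes were lower. Mcpt2 gave 5.44 and 5.20, a mean of 5.32 ± 0.17 (SD, n = 2). It came nearest to the threshold among the 8 genes that did not pass, and was still 1.30 and 0.99 below it. The mouse chymase genes are close relatives, so probes of one may share signal with another.

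The proteases of connective tissue mast cells also lay below the threshold on both arrays. Mcpt4 gave 4.83 and 5.05, a mean of 4.94 ± 0.15 (SD, n = 2). Cma1, which encodes the chymase also called MCPT5, gave 4.59 and 4.37, a mean of 4.48 ± 0.16 (SD, n = 2), and lay at the middle of the reference, with 51.9% and 49.0% of reference genes lower. Tpsb2, which encodes the tryptase also called MCPT6, gave 4.99 and 4.66, a mean of 4.82 ± 0.23 (SD, n = 2). Cpa3, the carboxypeptidase found in both kinds of mast cell, gave 4.73 and 4.47, a mean of 4.60 ± 0.19 (SD, n = 2), or 2.01 and 1.72 below the thresholds. For these 4 genes the signal on every array was within the range of the reference, and the arrays differed by at most 0.33.

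**Figure D2:**
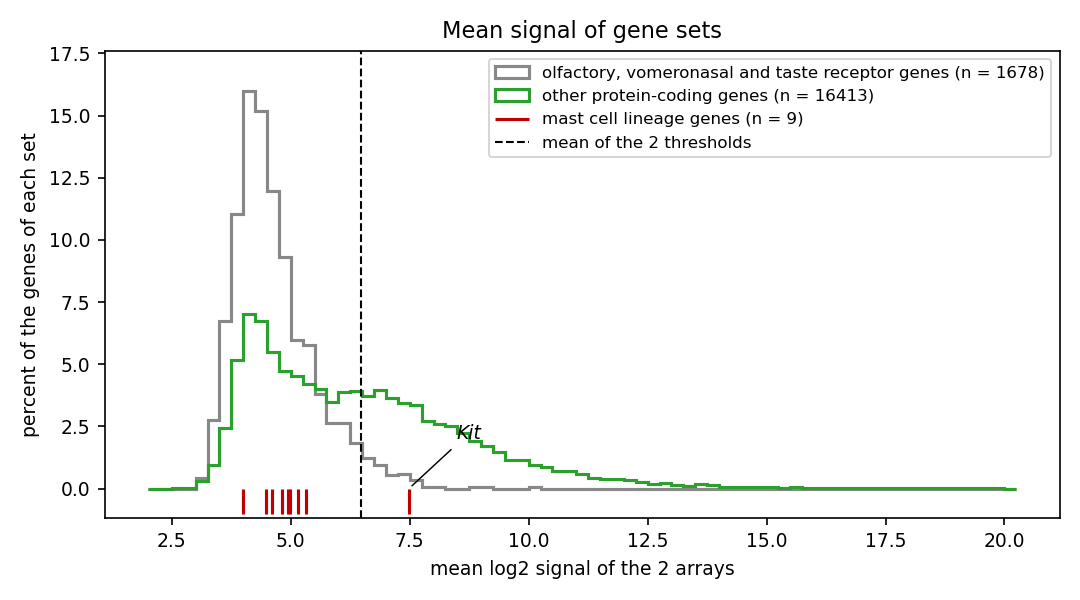
Distribution of the mean log2 signal over both arrays for the 1678 reference genes (grey) and the 16413 other protein-coding genes (green), as a percent of each set, with 9 red ticks for the mast cell lineage genes and a dashed line at the mean of both thresholds, 6.47. The ticks of 8 genes lie at or below 5.32 within the main peak of the reference, and that of Kit, at 7.48, lies in its upper tail.

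The 4 chymase members belong to a cluster on chromosome 14 that also holds basophil and granzyme genes. In the order of the GRCm38.p6 gene table, 15 protein-coding genes run from Cma1 through Cma2, Mcpt1, Mcpt2, Mcpt9, Mcpt4, Mcpt8 and Ctsg to the granzyme genes and end at Gzmb, and 13 of them were measured. Gzmb, which encodes granzyme B, a killing protease of cytotoxic lymphocytes that some mast cells also make, gave 13.40 and 13.37 and was the only measured gene of the cluster above the threshold. The other 12, among them the basophil protease gene Mcpt8 (4.08 and 4.38) and the cathepsin G gene Ctsg (4.30 and 4.32), had signals of 3.99 to 5.44 and passed on neither array. Gzmb and the chymase genes measured in the same cluster were therefore on opposite sides of the threshold.

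**Figure D3:**
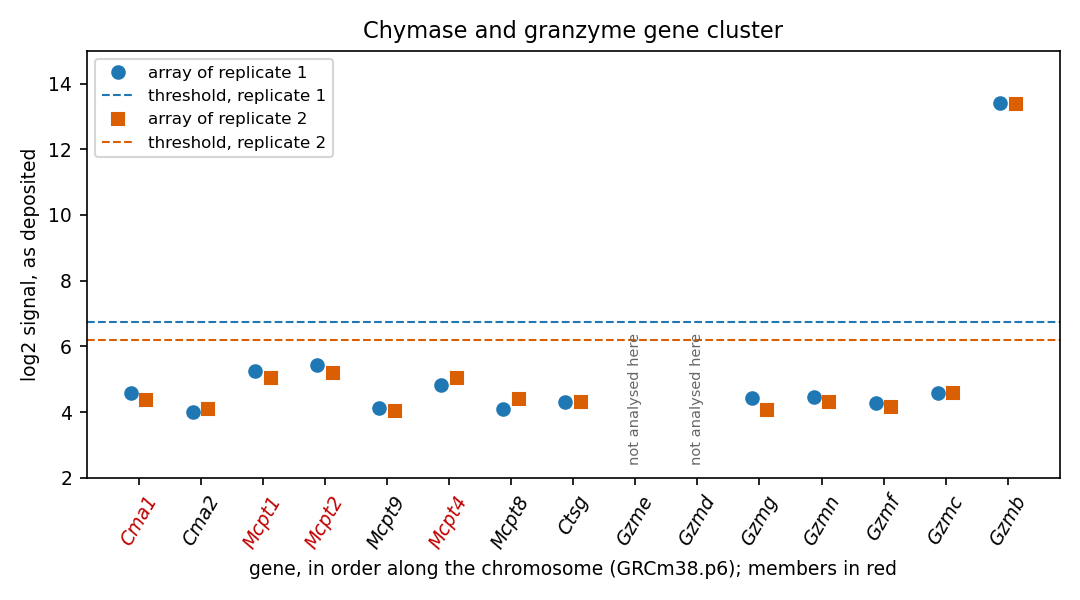
Log2 signal on the arrays of replicate 1 (circles) and replicate 2 (squares) for the protein-coding genes of the chymase and granzyme cluster, placed by gene order and not to distance, with the thresholds dashed and the 4 mast cell lineage genes named in red. Gzmb stands at 13.40 and 13.37, above both lines, and the other 12 measured genes lie between 3.99 and 5.44.

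The tryptase cluster on chromosome 17 was below the threshold throughout. It holds 6 genes from Prss34, a basophil protease gene, through Prss28, Prss29, Tpsab1 and Tpsb2 to Tpsg1, with signals of 3.91 to 4.99. Tpsab1 encodes the tryptase MCPT7, which mice of the C57BL/6 strain do not make, and the C57BL/6J gene table lists it as a transcribed pseudogene. Its signals were 4.11 and 4.14.

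The wider biology of mast cells was described with 5 lists of genes, which together hold 64 genes that are not members, 55 of them measured. Above the threshold on both arrays were 32 of the 55, on 1 array 6, and on neither 17, beside 38.9% above on both arrays among protein-coding genes outside the reference. Among the 17 that passed on neither array were the mast cell receptor genes Mrgprb1 and Mrgprb2 and the factor gene Gata2.

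Among other granule genes, 4 of 10 measured passed on both arrays. These were the proteoglycan core gene Srgn (10.48 ± 0.12), which holds granule proteases in many blood cells, the granule membrane gene Cd63 (15.32 ± 0.15), the fusion gene Vamp8 (10.92 ± 0.30) and Gzmb. Ndst2, which encodes an enzyme of heparin synthesis, passed only on the array of replicate 2, with 6.64 on replicate 1 and 6.80 on replicate 2. Among surface and growth factor genes, 5 of 9 passed, namely Fcer1g, Kitl, the interleukin 3 receptor gene Il3ra (7.18 ± 0.15), the interleukin 4 receptor gene Il4ra (13.75 ± 0.04) and the inhibitory lectin gene Cd33 (8.61 ± 0.20). Mrgprb2, the receptor through which connective tissue mast cells respond to basic peptides and drugs, gave 3.31 and 3.24, and its relative Mrgprb1 gave 3.18 and 3.36. Cd200r1 and Siglecf passed on neither array.

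Genes that carry the signal from the IgE receptor and KIT were above the threshold on both arrays in 12 of 18 cases and on 1 array in 5. Those on both were the kinase genes Syk (8.28 ± 0.02) and Fyn (9.87 ± 0.32), the adaptor genes Lat (8.87 ± 0.13), Lcp2 (10.04 ± 0.27), Gab2 (8.41 ± 0.62) and Grb2 (9.45 ± 0.19), the phosphatase genes Inpp5d (8.63 ± 0.27), Ptpn6 (7.67 ± 0.01) and Ptpn11 (9.02 and 8.98), the lipase gene Plcg2 (7.30 ± 0.46), the kinase subunit gene Pik3r1 (11.50 ± 0.37) and the ubiquitin ligase gene Cbl (13.62 ± 0.97). All of these also act in lymphocyte or myeloid receptors. Btk, a kinase of B cells and mast cells, passed on neither array, with 5.16 and 5.86. Lat2, Plcg1, Vav1, Pik3cd and Sh2b3 passed on 1 array each.

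Of 10 transcription factor genes measured, 6 passed and 4 did not. Those above were Stat5a (7.75 ± 0.05) and Stat5b (8.54 ± 0.27), which act downstream of KIT and of many cytokine receptors, Cebpa (9.36 ± 0.21), Lmo4 (7.91 ± 0.12), Bhlhe40 (8.85 ± 0.28) and Mitf. Cebpa was also on the list of basophil genes used below. Its signal is therefore not particular to mast cells and is not to be read as that of a mast cell factor. Mitf, a factor of mast cells, melanocytes and macrophages, had 7.29 in replicate 1 and 6.43 in replicate 2. Gata2, the GATA factor of mast cells and basophils, gave 4.74 and 4.82, and Gata1 and Tal1 gave means of 3.90 ± 0.08 and 4.53 ± 0.02. These 3 and Ikzf2 (6.03 ± 0.17) were below on both arrays.

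Among genes of lipid mediators, 5 of 8 passed. They were the prostaglandin D synthase gene Hpgds (9.07 ± 0.28), which mast cells share with group 2 innate lymphoid cells and macrophages, the lipoxygenase partner gene Alox5ap (8.37 ± 0.24), the inducible cyclooxygenase gene Ptgs2 (16.21 ± 0.25), the phospholipase gene Pla2g4a (10.37 ± 0.27) and Lta4h (8.42 ± 0.17). Ltc4s, the synthase of the leukotriene C4 that mast cells release, gave 3.47 and 3.39, and Alox5, the enzyme that starts leukotriene synthesis, gave 5.32 and 4.77. Neither passed, nor did Ptgds.

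Genes of other cells that carry KIT or share mast cell proteases were set beside these values. Of 7 measured genes of ILC3s, Kit and the interleukin 1 receptor gene Il1r1 (9.63 ± 0.16) passed, and Il23r, Il22, Il17a, Ncr1 and Ccr6 had signals from 3.85 to 5.62 and did not. Of 5 genes of the interstitial cells of Cajal, only Kit, the same member already counted among the ILC3 genes, passed on both arrays. Ano1, the chloride channel gene that defines these cells, gave 6.33 and 6.21 and exceeded only the threshold of replicate 2, by 0.02. Gja1 and Prkcq also passed on 1 array, and Thbs4 on neither. The basophil genes Mcpt8, Prss34 and Cd200r3 were below the threshold on both arrays, as were Il4, Il13 and Gata2, whereas Cebpa and Itga2, which other cells share, were above. Of 6 eosinophil genes only the granule gene Prg2 (8.56 ± 0.54) passed, while the eosinophil peroxidase gene Epx gave 3.79 and 3.56. Of 8 neutrophil genes, S100a9 and Csf3r passed.

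**Figure D4:**
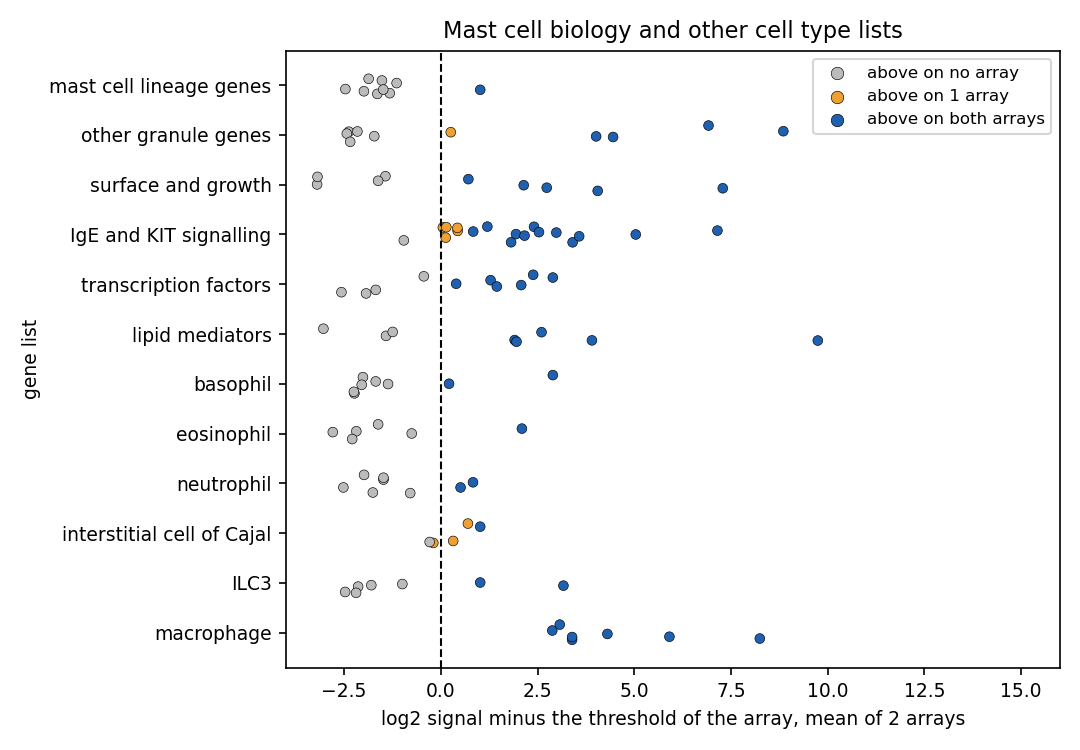
Each point is a gene, placed by its log2 signal minus the threshold of the array, averaged over both arrays, in 12 lists; colours show whether it was above the threshold on no array, 1 array or both, height within a row is spread only to separate points, and genes may appear in more than 1 list. In the top row 8 of 9 mast cell lineage genes lie left of the dashed line, whereas all 7 measured macrophage genes lie right of it.

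Genes chosen for the labelled cells were above the threshold, and so were genes chosen for other lineages. All 7 genes chosen for innate lymphoid or regulatory cells (Il10, Id2, Id3, Ptprc, Il7r, Sox4 and Il2rb) were above the threshold on both arrays, with mean signals from 8.92 to 12.21. So were all 7 measured macrophage genes, with means from 9.35 to 14.71. Also above were 6 of 6 epithelial, stromal, T cell and plasma cell genes (Epcam, Krt8, Dcn, Col3a1, Cd3e and Jchain), with means from 9.79 to 19.31. By the same call, 38.9% of protein-coding genes outside the reference passed on both arrays. These lists were chosen with earlier results of these data known, and the mice carried a reporter of Il10. The full counts are therefore no test of which cells were present. The means of Dcn (19.31), Jchain (17.79) and Krt8 (15.59) were higher than that of any of the 7 innate lymphoid or regulatory genes. Because probes differ in affinity, this does not order the genes by abundance. Col3a1 was not alike on the arrays, with 11.06 in replicate 1 and 13.10 in replicate 2. In a bulk sample, fewer cells of a type and less RNA per cell cannot be told apart, and the cells that gave the Kit signal cannot be identified from these arrays. The part of the other cell types in the signals of Kit, Fcer1g, Hpgds or Gzmb was not tested.

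The absolute difference between the arrays was at most 0.33 for each mast cell lineage gene. The difference of replicate 2 minus replicate 1, after subtraction of its median over all named genes (-0.05), ran from -0.28 for Tpsb2 to 0.26 for Mcpt4, with a median of -0.14. Of the 9 genes, 7 were lower on the array of replicate 2 and 2, Mcpt4 and Fcer1a, were higher. The middle 50% of all named genes lay between -0.21 and 0.21, and 3.45% of them differed by more than 2-fold in either direction. None of the 9 did, which at that share sets them apart from other genes in no way. For Kit the relative difference was -0.04. Each of these differences rests on 1 array against 1.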

How the data were processed

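Per the labels' protocols, TRIZOL RNA of the sorted cells was freed of DNA, amplified (Affymetrix WT Pico), and 5.5 µg of cDNA was fragmented and biotin-labelled. The authors deposited 1 value per feature and array, between 2.10 and 19.86, taken as log2 signal from this range because the log base is not stated. MAS5 is named in the submitters' processing notes, with no role. How features were summarized and scaled, and on which build, is not given in the sources used here.

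Of 61344 features, 28573 carried 1 distinct symbol, 2014 several and 30757 none, and only the first were used. Symbols were updated through Entrez identifiers, of which 21205 of 21456 were in the RefSeq gene table of GRCm38.p6. For 215 genes with several features, the one with the highest mean was used. A gene was called above the threshold when it exceeded the 95th percentile of the reference genes on both arrays. Errors are SDs over 2 arrays, whose number limits the precision. Promoters came from RefSeq (GRCm38.p6), and those of Mcpt1, Mcpt4, Cma1 and Cpa3 were aligned globally in pairs.

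All 9 measured members were named, and from other lists the genes that passed and the extremes, with neighbours chosen by position. No genes of like pattern were sought. The protein sequences foreseen for the chymases were not used here. Members and lists were chosen with earlier results of these data known. The alternatives were other percentiles, another reference, the median over features, each array alone and other scalings. Python 3.11.15, numpy 2.4.6 and pandas 2.3.3 were used.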

Additional observations from a re-analysis of the deposited data

How the results depend on the processing

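The count of mast cell lineage genes above the threshold was 1, Kit, with the 90th percentile of the reference, with keratin-associated protein and Rhox genes as reference, with the median over features, and without replicate 1 or replicate 2 (1 to 1). With the 99th percentile it was 0, as the lower margin of Kit turned from 0.78 to -0.38. It was also 0 when only features that list a symbol once were kept, a setting chosen after the data were seen, which leaves 7 members without Kit and Hdc. Under that setting 13914 named genes were left, against 28280. Of the other mast cell biology genes, whose number left was not counted, 11 passed, against 32. Elsewhere that count was 26 to 38, and without replicate 1 or replicate 2 it was 32 to 38. The share of all named genes that passed was 31.7% in the main setting and 39.0% with the 90th percentile. It was 19.8% with the 99th percentile and 29.3% with only features that list a symbol once. In the other settings it lay between 31.6% and 38.6%. The counts of genes are to be read beside these shares. The 8 genes other than Kit stayed below the threshold in every setting in which they were measured. The median difference between the arrays kept its sign, from -0.19 with no centring to -0.03 when centred on the reference genes. No paired analysis was possible because the series holds 1 group. Depth does not apply to arrays, and signals near those of the reference limit what can be seen of low transcripts.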
